A study of Mus musculus with 12 samples.

Results

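Chromatin accessibility was described at 9 genes of the JAK-STAT pathway in mouse ER-Hoxa9-Lys-GFP cells: the kinase genes Jak1 and Jak2, the transcription factor genes Stat3, Stat5a and Stat5b, and the feedback inhibitor genes Socs1, Socs2, Socs3 and Cish. A region belonged to one of these genes if that gene was the protein-coding gene it overlapped, or the nearest one within 50 kb, and 13 of 16028 regions did. All cells were of C57BL/6 origin and carried Hoxa9 fused to the estrogen receptor, whose activity in culture depends on estradiol (E2), together with a GFP reporter of lysozyme expression. They were grown in medium with serum and conditioned medium as a source of stem cell factor.

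ATAC-seq, which marks accessible DNA by transposase insertion, was run on 12 libraries, 2 for each of 6 conditions, and the deposited data give a single peak list for each condition. Untreated cells stayed in E2, and another group went without E2 for 120 h. The other 4 groups went without E2 for 24, 40, 56 or 72 h and then had E2 back for 96, 80, 64 or 48 h, so the length of withdrawal and that of add-back cannot be told apart. Per the labels, nuclei of a preparation were split for separate transposition reactions, and nothing says that the 2 libraries of a group came from separate cultures. The lists hold positions only, so read depth is unknown, no replicate value exists, and no test between conditions could be made. After cleaning they held 7987 to 13165 peaks, with the most in continuous E2 and the fewest at 120 h. Of 10 myeloid progenitor marker genes, 9 had a region (all but Elane), against 1 of 7 erythroid and megakaryocyte, 2 of 8 lymphoid and 1 of 4 mast cell and basophil markers. Of the progenitor marker regions, 23 were called in continuous E2 and 5 at 120 h, with 20 lost (87.0%). Over all regions called in continuous E2, 50.6% were lost. The share was 73.8% of those more than 1000 bases from a gene's start or end. Of the 5 lymphoid marker regions, 4 were lost. The only erythroid and megakaryocyte region and the only mast cell and basophil region were lost too. The part of these marker changes in the other results was not tested.

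JAK kinases sit on the inner side of cytokine receptors and phosphorylate STAT proteins when a ligand binds. Phosphorylated STATs move to the nucleus and bind DNA, and among the genes they switch on are Cish and the Socs genes, whose protein products bind receptors or JAKs and damp the signal. In myeloid cells this circuit carries signals of G-CSF, GM-CSF, interleukin 3, interleukin 6 and the interferons.

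The promoters that carry the contrast between these genes are shown first: Cish, Socs1 and Socs3, whose start regions were called at only one end point, and Jak2 and Stat3, whose start regions were called at both. They were picked by these calls, and the promoters of Jak1, Stat5a and Stat5b are not shown. Each run is the 250 bases before the RefSeq start (GRCm38.p6), 5′ to 3′ on the gene's strand, and all lie wholly inside a called region. Capitals mark matches to a searched motif on either strand, which were TTCNNNGAA (STAT), TTGCNNAA (C/EBP), GGAAGT (ETS) and TGATTNAT (HOX and MEIS).
Cish, chr9:107296409-107296658, plus strand: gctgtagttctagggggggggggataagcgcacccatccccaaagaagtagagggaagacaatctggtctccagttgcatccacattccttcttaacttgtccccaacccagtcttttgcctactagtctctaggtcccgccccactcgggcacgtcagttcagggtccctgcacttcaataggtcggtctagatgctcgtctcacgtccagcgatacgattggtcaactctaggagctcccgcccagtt
Socs1, chr16:10785537-10785786, minus strand: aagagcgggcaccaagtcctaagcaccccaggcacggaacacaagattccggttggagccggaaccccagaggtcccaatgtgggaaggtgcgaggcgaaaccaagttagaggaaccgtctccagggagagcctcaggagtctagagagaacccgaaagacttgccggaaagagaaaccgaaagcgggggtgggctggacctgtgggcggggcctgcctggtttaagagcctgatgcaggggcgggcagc
Socs3, chr11:117969367-117969616, minus strand: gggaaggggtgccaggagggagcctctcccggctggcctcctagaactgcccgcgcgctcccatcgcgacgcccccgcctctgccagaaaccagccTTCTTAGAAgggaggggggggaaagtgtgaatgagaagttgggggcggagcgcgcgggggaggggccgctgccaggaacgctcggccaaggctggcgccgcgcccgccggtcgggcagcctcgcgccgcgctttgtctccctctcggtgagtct
Jak2, chr19:29251553-29251802, plus strand: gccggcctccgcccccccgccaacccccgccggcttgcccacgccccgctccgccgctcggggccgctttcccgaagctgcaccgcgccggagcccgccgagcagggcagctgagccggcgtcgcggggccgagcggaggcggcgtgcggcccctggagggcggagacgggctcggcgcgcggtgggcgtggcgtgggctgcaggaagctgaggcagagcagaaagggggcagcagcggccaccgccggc
Stat3, chr11:100939541-100939790, minus strand: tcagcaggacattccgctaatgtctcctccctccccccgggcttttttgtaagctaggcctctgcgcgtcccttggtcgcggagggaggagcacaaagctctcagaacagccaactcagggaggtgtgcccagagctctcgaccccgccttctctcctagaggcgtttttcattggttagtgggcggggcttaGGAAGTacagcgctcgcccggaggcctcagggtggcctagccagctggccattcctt
The Cish window also holds 2 STAT matches just after the start, shown as a stretch of 26 bases at chr9:107296656-107296681, with the first match beginning at the start itself.
Cish, STAT matches: gttTTCCTGGAAagTTCTTGGAAatc

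Of the 9 genes, 8 matched a RefSeq window, which runs from 250 bases before to 50 bases after a start, and they had 10 windows. The STAT motif was found in the windows of Cish, with 2 matches, and Socs3, with 1 match that begins at position -154 relative to the start. Of all 32851 windows, 8.30% held the STAT motif at least once and 0.457% held it 2 or more times. The Cish and Socs3 windows were touched by a peak, and 6.46% of all windows touched by a peak held the motif. The ETS motif lay in 1 window each of Stat3, Stat5a and Stat5b, and 23.8% of all windows held it. Of these, only the Stat3 window was touched by a peak, and 31.2% of all windows touched by a peak held the motif. The C/EBP motif (10.8% of all windows) and the HOX and MEIS motif (3.22%) had no match in these 10 windows. The capitals in the Stat3 promoter are the ETS match, and the Socs1 and Jak2 promoters held none of the 4 motifs. G and C made up 81.0% of the bases of the Jak2 window, 73.3% in Socs3, 63.3% in Socs1, 60.7% in Stat3 and 53.3% in Cish. The Cish window thus lay near the middle of all windows, 51.4% of which had a lower share, while 99.3% had a lower share than that of Jak2.

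Between continuous E2 and 120 h without E2, the start regions of Jak1, Jak2, Stat3 and Stat5a were called at both end points while those of Socs1, Socs3 and Cish were called at only one of them. At a gene boundary, defined as within 1000 bases of a gene's start or end, 4 regions of Jak1, Jak2, Stat3 and Stat5a were called at both end points (kept). With all lists shortened to the same length by keeping the widest peaks, Stat5a was no longer called in continuous E2 and counted as gained, and the other 3 stayed kept. The 4 boundary regions of the inhibitors split into 3 called in continuous E2 but not at 120 h (lost), at Socs1, Socs2 and Socs3, and 1 called at 120 h but not in continuous E2 (gained), at Cish. Over all 13 regions, 5 were lost, 2 gained and 6 kept. Of the 11 called in continuous E2, 45.5% were lost (95% Wilson interval 21.3 to 72.0, counting error over regions only), against 50.6% of all regions called there. Of the 8 called at 120 h, 2 were gained, against 18.4% of all regions. The lost share lies near the background. Among boundary regions of the whole series, 29.6% of those called in continuous E2 were lost and 9.96% of those called at 120 h were gained. Away from boundaries, 2 of the 4 regions of these genes called in continuous E2 were lost, against 73.8%, and 1 of the 3 called at 120 h was gained, against 36.2%. Calls in all 6 lists were made at 4 of the 13 regions, against 32.8% of all regions, with 3 of the 8 at boundaries (51.8% of all boundary regions) and 1 of the 5 away from them (14.2%).

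**Figure D1:**
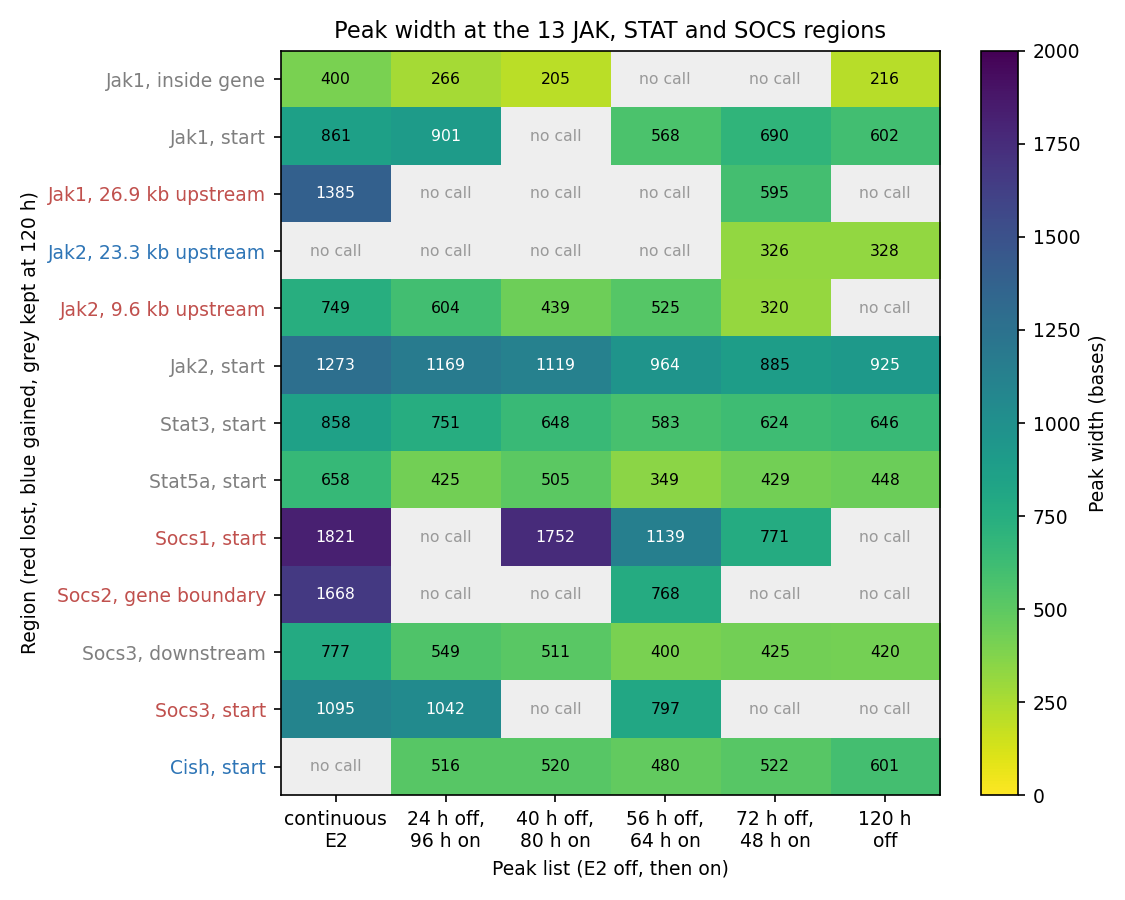
Peak width in bases (colour and number) at the 13 regions of the 9 genes, by peak list, with grey cells where no peak was called. The Jak2, Stat3 and Stat5a start regions and the region downstream of Socs3 were called in all 6 lists, the Cish start region in every list but that of continuous E2, and the Socs1, Socs2 and Socs3 boundary regions in 4, 2 and 3 lists.

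Socs1 encodes an inhibitor that binds JAKs directly and is best known for restraining interferon signals. Its region (chromosome 16, 10784762 to 10786582) held the start of the gene and, at 1821 bases in continuous E2, was wider than 97.3% of lost boundary regions. It was not called after 24 h of withdrawal, was 1752, 1139 and 771 bases wide after 40, 56 and 72 h, and was not called at 120 h. The call was thus missing between 2 lists that had it.

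Socs3 encodes the inhibitor that acts on the shared receptor chain of the interleukin 6 family and on the G-CSF receptor. Its start region (chromosome 11, 117968961 to 117970055) was 1095 bases wide in continuous E2, 1042 after 24 h and 797 after 56 h, with no call after 40 h, 72 h or 120 h. A second region, 1962 bases beyond the other end of the gene (117963328 to 117964117), was called in all 6 lists, at 777, 549, 511, 400, 425 and 420 bases in the order from continuous E2 to 120 h. The 2 regions of Socs3 therefore had different calls in 3 of the 6 lists.

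Socs2 encodes an inhibitor that limits growth hormone signals. Its only region (chromosome 10, 95416362 to 95418029) covered one boundary of the gene, was 1668 bases wide in continuous E2 and 768 after 56 h, and was called in no other list. The promoter of Socs2 was not analysed here.

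Cish encodes the SOCS protein CIS, a target of STAT5 that restrains signals through STAT5. Its region (chromosome 9, 107296326 to 107296943) held the start, the promoter printed above and both STAT matches. No peak was called there in continuous E2, and it was 516, 520, 480 and 522 bases wide in the 24, 40, 56 and 72 h add-back lists and 601 bases at 120 h. These 5 widths lay within a narrow range, and 53.3% of gained boundary regions were narrower at 120 h. Regions called in every list but that of continuous E2 made up 1.99% of all regions (319) and 2.77% of boundary regions (220).

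Jak2 encodes the kinase used by the receptors for erythropoietin, thrombopoietin and GM-CSF. Its start region (chromosome 19, 29251074 to 29252346) was called throughout, at 1273, 1169, 1119, 964, 885 and 925 bases from continuous E2 to 120 h. A region 9.6 kb upstream (29241460 to 29242208) was 749, 604, 439, 525 and 320 bases wide in the first 5 lists and not called at 120 h. Another, 23.3 kb upstream (29228140 to 29228478), was called after 72 h and at 120 h alone, at 326 and 328 bases. After 72 h of withdrawal with 48 h of add-back, all 3 Jak2 regions were called, which held for no other list. Chromosome 19, with Jak2, is the only one of the 6 chromosomes of these genes whose rows were repeated in the files. Most widths of Jak2 regions are therefore of merged rows. In continuous E2 the 2 distinct rows at the start were 1186 and 1273 bases wide, and those 9.6 kb upstream 489 and 749. Rows over 10000 bases that spanned all 3 regions were dropped, 12 each in continuous E2 and after 24 h, 2 after 40 h and 1 in each later list, and their part in the calls was not tested. Without Jak2 the counts were 4 lost, 1 gained and 5 kept, an alternative chosen after seeing the data.

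Jak1 encodes the kinase shared by the receptors of interferons and of the interleukin 6 family. Its start region (chromosome 4, 101264602 to 101265590) was called in every list but that of 40 h, at 861 bases in continuous E2, 901, 568 and 690 after 24, 56 and 72 h, and 602 at 120 h. A region inside the gene, 92.0 kb from the start (101172828 to 101173229), was narrow wherever it was called, with 400 bases in continuous E2, 266 and 205 after 24 and 40 h, and 216 at 120 h. It was not called after 56 or 72 h. The remaining one, 26.9 kb upstream (101292074 to 101293523), was 1385 bases wide in continuous E2, wider than 96.1% of lost regions away from boundaries, and 595 bases after 72 h, with no other call. These upstream regions of Jak1 and Jak2 lay nearer to the non-coding genes Gm12796 and Gm41829 than to the kinase genes.

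Stat3, Stat5a and Stat5b lie side by side on chromosome 11. Stat3 encodes the main STAT of interleukin 6 and G-CSF signals, and its start region (100939089 to 100939946) was 858, 751, 648, 583, 624 and 646 bases wide from continuous E2 to 120 h. Stat5a encodes a STAT used by interleukin 3, GM-CSF and many other cytokines. Its region (100860212 to 100860883) held one of the gene's 2 listed starts and was 658, 425, 505, 349, 429 and 448 bases wide. Both were called in every list. Stat5b, its close relative, had no assigned region and no peak touched either of its 2 promoter windows in any list. The Stat5a region lay 1208 bases beyond the start-side boundary of Stat5b.

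**Figure D2:**
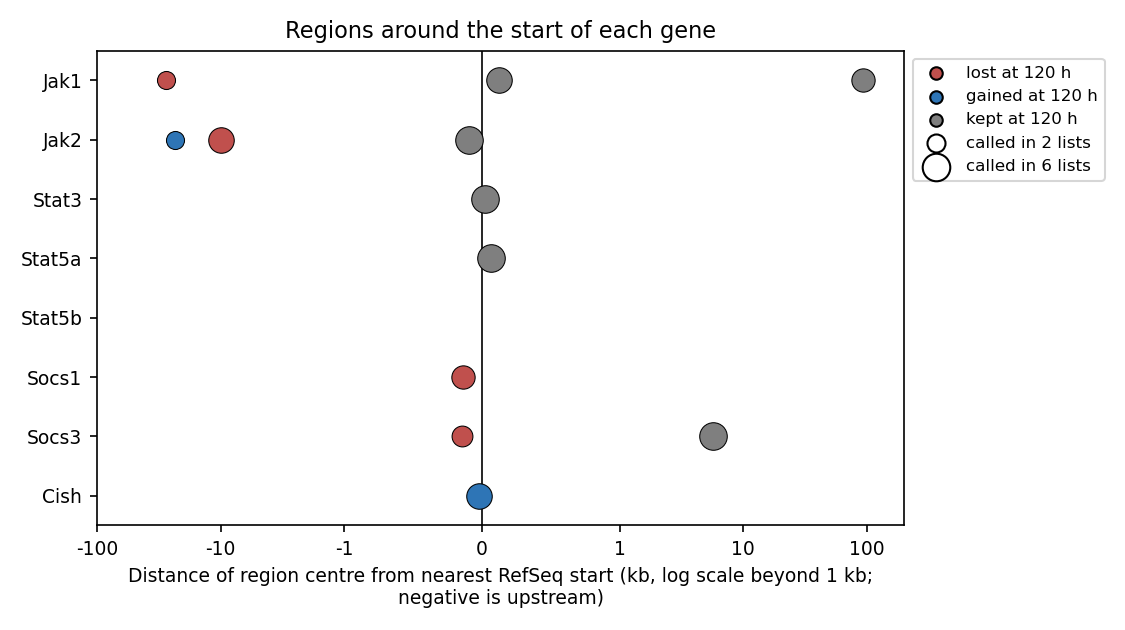
Distance of each region's centre from the nearest RefSeq start of its gene in kb (negative is upstream; log scale beyond 1 kb), with colour for the class at 120 h and point size for the number of lists that called it. Socs2 is left out for lack of a listed start, Stat5b had no region, and the points at the starts of Jak1, Jak2, Stat3 and Stat5a are kept while those of Socs1, Socs3 and Cish are lost or gained.

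Some calls at these genes came and went from list to list. Among their 5 lost regions, 1 changed its call only once along the 6 lists, the one 9.6 kb upstream of Jak2, whereas 84.2% of all lost regions and 74.9% of lost boundary regions did, and 88.3% of lost regions away from boundaries. This count depended on the call rule: it was 3 of 5 when a list had to cover 50% of a region, 0 of 4 with lists of equal length and 2 of 6 without peaks under 300 bases, against 84.8%, 77.8% and 84.4% of all lost regions. Both gained regions changed once (87.2% of all gained regions). Of the 6 kept regions, 4 were called throughout (81.0% of all kept regions) and the other 2, both of Jak1, were interrupted. The pattern of Socs2 over the 6 lists was shared by 41 regions in all, that of Socs3's start by 85, that of Socs1 by 92 and that of the Jak1 upstream region by 55. With so few members, and 1 list per group, these counts are a description of the lists.

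The number of the 13 regions called was 11 in continuous E2, then 9, 8, 10 and 10 after 24, 40, 56 and 72 h, and 8 at 120 h. Over all 16028 regions, 82.1% were called in continuous E2, then 71.4%, 61.9%, 55.9% and 59.5%, and 49.7% at 120 h. After 56 h of withdrawal all 8 boundary regions of these genes were called, against 79.0% of boundary regions in the series. In the other lists 7 were called in continuous E2 (86.9% of boundary regions in the series), 6 after 24 h (84.1%), 5 after 40 h (81.2%), 6 after 72 h (81.6%) and 5 at 120 h (68.0%). Peaks touched a promoter window of 7 of the 8 genes with windows. At 3 of these 7, Jak2, Stat3 and Stat5a, that held in all 6 lists, against 53.5% of genes with a window touched in any list.

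Peaks narrowed from continuous E2 to 120 h at all 4 regions of these genes that were called throughout, and so did most of the 5265 such regions. The width at 120 h was 0.753 of that in continuous E2 at Stat3, 0.727 at Jak2, 0.681 at Stat5a and 0.541 downstream of Socs3. The median over all such regions was 0.670, with the 5th and 95th percentiles at 0.409 and 0.961. All 4 ratios lay between those percentiles.

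**Figure D3:**
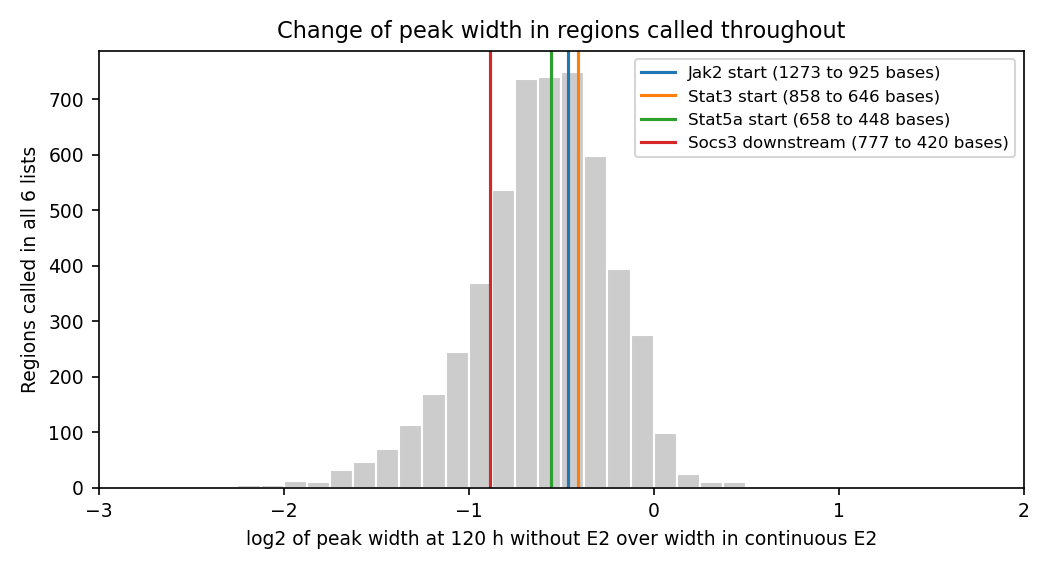
Number of regions called in all 6 lists by the log2 ratio of peak width at 120 h to that in continuous E2 (grey bars), with lines for the start regions of Jak2, Stat3 and Stat5a and the region downstream of Socs3. The lines lie within the bulk of the bars, with that of Socs3 the furthest to the left at a ratio of 0.541.

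Genes with the most similar profiles were sought for the 2 members with 3 regions, by the number of their regions called in each list and the sum of absolute differences over the 6 lists. For Jak2, with counts of 2, 2, 2, 2, 3 and 2, 3 genes had a difference of 0: Kif21b, Ola1 and Psma3. For Jak1, with 3, 2, 1, 1, 2 and 2, only Lgmn had a difference of 0. Genes with equal counts need not have regions with the same patterns.

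Other genes of the pathway were described by 4 lists. Of 10 further JAK, STAT and SOCS family genes, 8 had 12 regions, with 3 lost, 2 gained and 7 kept. All 7 kept regions were called in all 6 lists, among them 1 each of Socs5, Socs6 and Socs7. These regions of Socs5, Socs6 and Socs7 lay at a gene boundary, where those of Socs1, Socs2 and Socs3 were lost. Socs6 also had 2 lost regions and Socs5 had 1, all away from gene boundaries. The gained regions lay at a boundary of Jak3, the kinase paired with the common gamma chain, at 120 h alone, and in Stat4, from 56 h of withdrawal on. Of the 10 regions called in continuous E2, 30.0% were lost, against 50.6% of all regions, and of the 9 called at 120 h, 22.2% were gained, against 18.4%.

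Of 22 cytokine receptor genes that signal through JAKs, 15 had 35 regions, with 16 lost, 4 gained, 14 kept and 1 in neither end point. Il4ra, the interleukin 4 receptor, had 3 lost regions, and Il10ra and Il10rb, both chains of the interleukin 10 receptor, and Lifr had 2 each. The 4 gained regions lay at Csf3r, the G-CSF receptor, and Il6ra, the interleukin 6 receptor, with 2 each, and neither gene had a region in continuous E2. Csf2ra, the GM-CSF receptor alpha chain, kept 4 regions and Ifnar1, of the type I interferon receptor, kept 3. The lost share was 53.3%, near the 50.6% of all regions, and the gained share of regions called at 120 h was 22.2%, against 18.4%.

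Of 14 other brakes and adaptors, all had a region, and 11 regions were lost, 3 gained and 13 kept, a lost share of 45.8%, near the 50.6% of all regions, and 18.8% of those called at 120 h were gained, against 18.4%. The phosphatase genes Ptpn1 and Ptpn11 kept 2 regions each, called in every list. Ptpn6, which encodes the phosphatase SHP-1, had 2 gained and 2 kept regions. Cblb, Ptprc, Usp18 and Pias4 lost 2 each. The 1 gained region of Sh2b1, an adaptor that binds JAK2, was called in every list but that of continuous E2, as at Cish.

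Of 14 genes known as targets of STATs in various cells, all had a region, and 8 regions were lost, 10 gained, 9 kept and 6 were in neither end point. Of the 17 called in continuous E2, 47.1% were lost, near the 50.6% of all regions. Of the 19 called at 120 h, 52.6% were gained, against 18.4% of all regions. Most of the 19 lay away from gene boundaries, where 36.2% of all regions called at 120 h were gained, against 9.96% at boundaries. The list's own boundary regions called at 120 h were gained at Bcl6, Id1, Irf1 and Junb. They were kept at Pim1, Pim3 and another region of Junb, so gained regions were not confined to distal positions. In continuous E2, 51.5% of the list's regions were called, against 82.1% of all. After 72 h of withdrawal with add-back, 78.8% were called, against 59.5%, and at 120 h 57.6%, against 49.7%. Regions in every list but that of continuous E2 numbered 3 of 33, 1 each of Irf1, an interferon-induced factor, Bcl3 and Bcl6. Those of Irf1 and Bcl6 lay at a gene boundary. Such regions made up 1.99% of all regions and 2.77% of boundary regions. Ccnd3, encoding cyclin D3, had 3 lost, 2 gained and 1 kept regions, and Junb had 2 gained and 1 kept. Pim1 and Bcl2l1, which promote survival, each had 1 lost and 1 kept region. Regions of 1 gene share a locus, and no test of these lists was made.

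**Figure D4:**
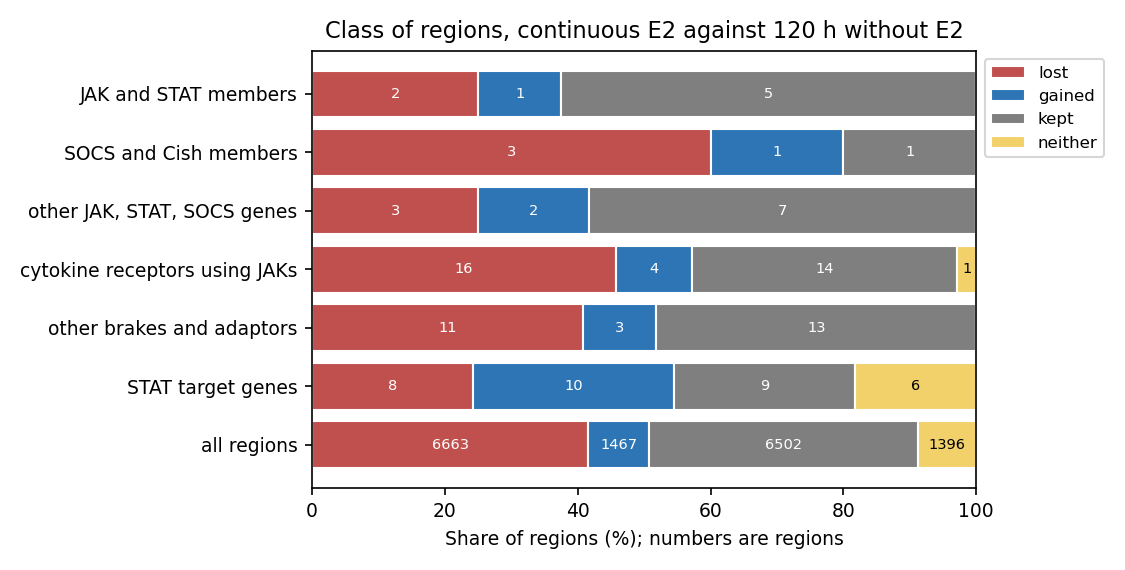
Share of regions in percent by class between continuous E2 and 120 h for the members, 4 lists of other pathway genes and all regions, with region counts printed in the bars. The bar of STAT target genes holds 10 gained of 33 regions, and that of the Socs genes and Cish 3 lost, 1 gained and 1 kept.

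**Figure D5:**
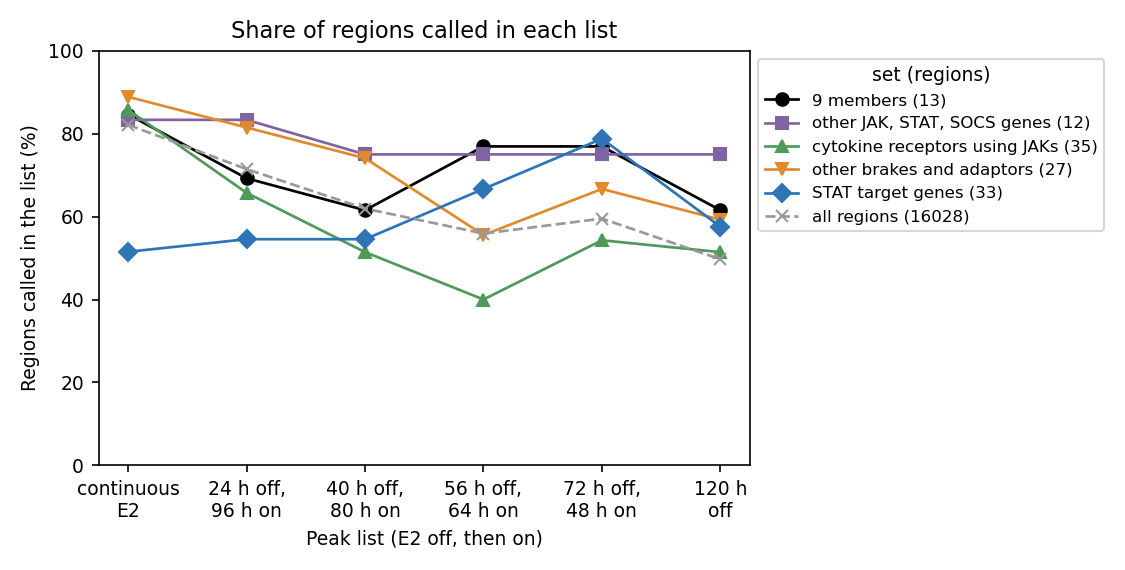
Share of regions called in each of the 6 peak lists, in percent, for the 9 members, 4 lists of other pathway genes and all regions, with the number of regions in the legend. STAT target genes run from 51.5% in continuous E2 to 78.8% after 72 h of withdrawal, while all regions run from 82.1% to 59.5% over the same lists. At 120 h the shares are 57.6% and 49.7%.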

How the data were processed

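The deposited files are 6 ATAC-seq peak lists, 1 per group of 2 libraries, with chromosome, start and end and no other value. Tools listed in the submitters' processing notes are MACS2 2.0, STAR 2.5 and BWA (no version given), and the build listed is mm9. Which tool did what, and how the 2 libraries of a group were combined, is not given in the sources used here. In each list, 47.5% to 62.3% of peaks held a RefSeq start of GRCm38.p6, against 1.15% to 1.77% after a shift of 100000 bases, so GRCm38 was used.

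Exact duplicate rows and intervals over 10000 bases were dropped, and rows overlapping by 1 base or more were merged within and then across lists into regions. Each region went to the protein-coding gene it overlapped or the nearest within 50000 bases, and where several overlapped, to the one with a boundary nearest its centre. Width is the sum of the peaks of a list in a region. Depth is unknown, and intervals cover counting error only.

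All 9 members were described with every region. In each pathway list up to 4 genes with most lost, 4 with most gained and 2 with most kept regions were named. Ties went by summed width. Bcl6, Id1, Pim3 and Socs7, named outside this rule, were chosen after their values were seen. A result that this rule names is not reported here. The members and lists were chosen with earlier results of these data known. Merging, calls, classes and gene assignment were tested on simulated data. Alternatives covered overlap, list length, narrow peaks, assignment distance and gene set. Python 3.11.15, numpy 2.4.6, scipy 1.17.1 and matplotlib 3.10.9 were used.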

Additional observations from a re-analysis of the deposited data

How the results depend on the processing

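No paired analysis was possible because the 2 libraries of a condition share 1 peak list, so leaving out a library was not possible either. The values as reported were 5 lost, 2 gained and 6 kept regions. With all lists shortened to their 7987 widest peaks, 4 regions were gained, 4 rather than 9 were called after 24 h, and 7 of the 13 regions had the pattern over the 6 lists as reported. Stat5a was then called in 3 lists, none of them that of continuous E2, and turned from kept to gained. Cish was called in 4 lists, still without continuous E2. Gained regions numbered 1 with genes within 20000 bases, with all annotated genes, and without Jak2 (chosen after seeing the data). With all annotated genes, 3 were lost, because the lost regions upstream of Jak1 and of Jak2 lay nearer to a non-coding gene. So did the gained region upstream of Jak2. When every region within 50 kb of a member was counted, 10 were lost, and calls numbered 19 in continuous E2, 14 after 24 h, 17 after 56 h and 17 after 72 h. Under 50% coverage, a distance of 100000 bases or a minimum width of 300 bases, the counts of lost, gained and kept regions and of calls per list stayed within 1.5 times those reported. Lost regions whose call changed once numbered 1 as reported, 3 under 50% coverage, 0 with lists of equal length and 2 with the minimum width. With that minimum width, the region inside Jak1 was left in continuous E2 alone.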

Other observations

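Regions within 50 kb of these genes that belong to their neighbours add to the picture of each locus. Around Cish lay 4 regions, and none of them was called in continuous E2. Besides the Cish start, 2 lay at Mapkapk3, which encodes a kinase of the p38 pathway, and 1 at Hemk1. The Mapkapk3 region 15698 bases from Cish was 990 bases wide after 24 h of withdrawal, 778 and 742 after 56 and 72 h and 791 at 120 h. The other Mapkapk3 region was called after 56 and 72 h alone, at 407 and 412 bases, and that of Hemk1 after 24, 56 and 72 h, at 357, 412 and 391 bases. The 4 regions were called 3, 1, 4 and 4 times after 24, 40, 56 and 72 h and 2 times at 120 h. Of 4692 protein-coding genes with at least 4 regions within 50 kb, 5 had none called in continuous E2. They were Cish, its neighbour Hemk1, Atp8b2, Atp8b3 and Ly6c2. The region at Hemk1 counts around both Cish and Hemk1, so these are not separate loci. The minimum of 4 equals the number around Cish. The Cish locus was singled out after its values were seen.

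Around Jak2, the region at Insl6 was 1230 bases wide in continuous E2 and 739, 511 and 649 after 40, 56 and 72 h, the same order of calls as at the start of Socs1. The region at the boundary of Cd274, which encodes the ligand PD-L1 and is induced by interferon, was called in every list but that of 40 h, at 894, 665, 558, 502 and 366 bases. Around Stat5b, the regions at Hcrt and Ghdc were called in continuous E2 alone, at 471 and 522 bases.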
